A study of Mus musculus with 8 samples.

Results

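The cells described here are the resting cortical epithelial cells of the E15.5 mouse thymus. They were the cells of the E15.5 cTEC matrix with at most 5% mitochondrial unique molecular identifiers (UMIs) and at most 5000 detected genes that held no UMI of Mki67 or Top2a, both genes of dividing cells, and at least 1 UMI of Psmb11 or Prss16, both genes of the thymic cortex. Of 3705 cells in the matrix 3571 were within the limits on mitochondrial UMIs and genes, and 2001 of these met the whole rule (56.0%, exact 95% binomial interval 54.4 to 57.7%). The 8 libraries of the series held 28334 cells in all. These 4 genes chose the cells, so their levels, and those of genes that share the cell cycle with Mki67 and Top2a, are given as description only.

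The study profiled sorted thymic epithelial cells (TEC) of the mouse by droplet sequencing at several ages. All groups were wild type and of the strain labelled C57 B6 (CD45.2), with no transgene and no treatment. The E15.5, E17.5, newborn (NB) and adult cTEC gates took viable EpCAM+ CD45- Ly51+ UEA-1- cells, and the E13.5 gate took viable EpCAM+ CD45- cells without a Ly51 gate, so it held total TEC. Embryonic thymi were dispersed with trypsin and EDTA, whereas newborn and adult thymi were digested with Liberase TM and DNase I and enriched on Percoll, and E17.5 cTEC came from a second capture together with adult cTEC replicate 2. The number of embryos pooled for E15.5 was not given in the sources used here. The group had 1 library, as had each other age below the adult. No test between ages or cell states was therefore possible, no p-value is given, and intervals cover counting error only.

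Cortical TEC form the meshwork in which immature T cells gather, expand and are first tested for a working antigen receptor. They depend on the transcription factor Foxn1, draw progenitors in with the chemokines Ccl25 and Cxcl12, and instruct them through the Notch ligand Dll4 and the cytokines Il7 and Kitl. To display self peptides they use a proteasome with the cortex-specific subunit Psmb11 for MHC class I, and the proteases Ctsl and Prss16 for MHC class II. In the fetal thymus the epithelium expands quickly, and cells in and out of division are mixed.

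FOXN1, the factor that drives many of these genes, is known to recognise the core GACGC. Promoter windows of RefSeq on GRCm38.p6, from 250 bases before to 50 bases after each gene start, were searched for GACGC on either strand (GCGTC on the printed strand when the core lies on the opposite one). The core was in 8932 of 32851 windows, or 27.2%, and in 8009 of 27025 genes, or 29.6%, so it is common. Of the 14 cTEC marker genes 11 were in the table and 5 had a match (Psmb11, Ccl25, Cxcl12, Enpep and Kitl). Sites before the gene start are shown as 30 bases on the plus strand, with the core in capitals, for Psmb11, which the rule used, and for Ccl25 and Cxcl12, the chemokines described next.
Psmb11, chr14:54625236-54625265, 62 bases before the start: agcttctccacaGCGTCctcctcctcctcc
Psmb11, chr14:54625060-54625089, 239 bases before the start: gctgacaggtgGCGTCttcagagtgtagga
Ccl25, chr8:4325142-4325171, 56 bases before the start: ctttgaagaagcGACGCtcattggttggca
Cxcl12, chr6:117168461-117168490, 62 bases before the start: cgcaggggatgcGCGTCagagaccccagcc
The start is that of the RefSeq transcript. For Psmb11 it lies inside the longer GENCODE gene span given further on. A second Ccl25 match, at or past the gene start, is not shown. A match describes letters in this window and does not show that the factor binds there.

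The 2001 cells held 13876036 UMIs, with a median of 6933 UMIs and 2512 genes per cell, a median of 1.99% mitochondrial UMIs, and 25.1% of UMIs from ribosomal protein genes in the median cell. From 0 to 24 of their barcodes also occurred in each other library. A doublet caller (Scrublet) marked 4 of the 3571 cells and none of the 2001, and at 0.112% it is taken not to have worked, so doublets were not removed. Among cells with Xist or Y-linked UMIs, 747 held Xist only, 703 held Y-linked UMIs only and 29 held both (1.96%, exact 95% interval 1.32 to 2.80%). The 29 cells had a median of 9175 UMIs. A further 522 cells held neither. Xist cells had 9.67 Xist UMIs on average and Y-only cells 1.58 Y-linked UMIs, so the marks differ in depth, and with at least 2 UMIs required 720 cells were Xist only and 300 Y only. The library thus held cells of both sexes, in a ratio that these marks do not settle.

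The label was checked against markers that the rule did not use. Thinned to 3000 UMIs, which 1946 of the 2001 cells reached, 95.1% of the cells had a UMI of Ccl25 (exact 95% interval 94.1 to 96.0%), 84.1% of Cxcl12, 84.6% of Tbata, 62.5% of Il7, 44.1% of Ly75, 38.1% of Foxn1, 20.6% of Dll4 and 6.27% of Enpep, which encodes the sorted antigen Ly51. As background, 7 cells of the library with at least 10 Pth UMIs, 2 of which met the rule, had Ccl25 at 60.4 CPM (UMIs summed over the cells and scaled to a common total), Tbata at 40.3, Cd74 at 121 and no Foxn1, Dll4 or Cxcl12 UMI, with a median depth of 5844 UMIs. Thinned alike, 2 of the 7 had a Ccl25 UMI (28.6%, exact 95% interval 3.67 to 71.0%), 1 a Tbata UMI, and 5 a Ctsl and 5 a Krt18 UMI (71.4% each). The list of medullary and progenitor markers summed to 1529 CPM with 3 of 16 at 0, against 2744 CPM in E13.5 TEC. It summed to 2298 CPM in E17.5, 2898 in NB and 7866 and 1889 in the adult replicates, so it does not set cortical gates apart from total TEC. Krt17, a keratin, gave 1211 CPM of the E15.5 sum, and the medullary chemokine Ccl21a 57.8 CPM. Aire had 2 UMIs in all 2001 cells, and Fezf2 and Cd80 had 0 UMIs of 13876036, which allows up to 0.216 CPM.

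Markers of other cells were near 0. Ptprc (CD45) and Cd3e had 0 UMIs, 7 of 15 thymocyte markers were at 0 and the list summed to 8.0 CPM. The erythroid list summed to 0.649 CPM (4 of 9 at 0), the myeloid list to 9.22 (7 of 10 at 0), the endothelial list to 18.8 (4 of 8 at 0), the mesenchymal list to 8.79 (0 of 8 at 0), the thyroid list to 0.432 (4 of 5 at 0) and the neural crest list to 6.34 (3 of 6 at 0). The parathyroid list was the exception at 220 CPM, of which Pth, the parathyroid hormone gene, gave 97.3 CPM. As described further on, 2 cells held most of the Pth UMIs.

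How far the cells were out of division was described with 10 other cycling genes, among them Cdk1, Ccnb1, Birc5 and Ube2c. At 3000 UMIs 73.6% of the resting cells had none of these UMIs (exact 95% interval 71.6 to 75.6%), against 30.8% of cycling E15.5 cTEC, 40.5% of E13.5 TEC chosen by the same rule, 71.1% at E17.5, 80.3% in NB and 87.8 and 89.4% in the adult replicates. At full depth 1095 of the 2001 cells, or 54.7%, had none. In 76 of 1946 thinned cells (3.91%) at least 3 such UMIs remained. Resting therefore means without Mki67 and Top2a UMIs, and a minority of the cells still held division transcripts.

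The cells just inside and just outside the rule are given without a test. The 594 cells with exactly 1 Mki67 or Top2a UMI, which the rule left out, had Ccl25 at 2458 CPM, Foxn1 at 159 and Cdk1 at 25.9, against 2521, 154 and 14.7 CPM in the 2001 cells. At the cortical end, 25 cells were kept with only 1 or 2 Psmb11 or Prss16 UMIs, and they had Ccl25 at 771 CPM and Pth at 9709. The 16 cells left out for having neither gene had Ccl25 at 53.3 CPM and Pth at 22492.

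The most abundant transcripts described a keratin-rich, antigen-presenting epithelium. Each UMI stands for 1 captured transcript end, so levels were not divided by gene length. Leaving out ribosomal protein and mitochondrial genes, Malat1 led at 15609 CPM, followed by Krt18 at 8630, the elongation factor gene Eef1a1 at 5405, Krt8 at 5090 and Ctsl at 5046. The protease inhibitor gene Cstb stood at 4431 CPM, the fatty acid binding protein gene Fabp5 at 4203, and Cd74, the chaperone of MHC class II, at 4155. Tbata at 2739 CPM, Prss16 at 2700, H2-Ab1 at 2531 and Ccl25 at 2521 were also among the 25 most abundant.

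Most cTEC markers stood at least 2-fold higher at E15.5 than at E13.5, while Foxn1 was nearly level. Values follow by age, from E13.5 TEC and then E15.5 cTEC through the E17.5 and NB libraries to adult replicates 1 and 2. Psmb11 (GRCm38 chromosome 14, 54621433 to 54629556, plus strand) stood at 425, 1630, 1591, 1463, 832 and 1689 CPM. Its E15.5 level was thus within the range of the later libraries, but it and Prss16 chose the cells. Ccl25 (chromosome 8, 4325210 to 4360020, plus strand) was not used by the rule and stood at 1144, 2521, 2619, 4549, 3108 and 4858 CPM, so E15.5 and E17.5 lay close together and the later libraries higher.

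Ctsl, the protease that trims the MHC class II chaperone in the cortex, stood at 1129, 5046, 14029, 14389, 8618 and 11708 CPM. Tbata (chromosome 10, 61171954 to 61188841, plus strand), a gene associated with thymus, brain and testis, followed with 187, 2739, 6166, 5162, 5255 and 8960 CPM. For both genes the E15.5 library lay between E13.5 and every later library. Foxn1 (chromosome 11, 78357577 to 78386558, minus strand) held a narrow range of 131, 154, 116, 101, 120 and 90.2 CPM. Its E15.5 value was the highest of the 6, with a counting interval of 147 to 160 CPM against 118 to 145 at E13.5.

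**Figure D1:**
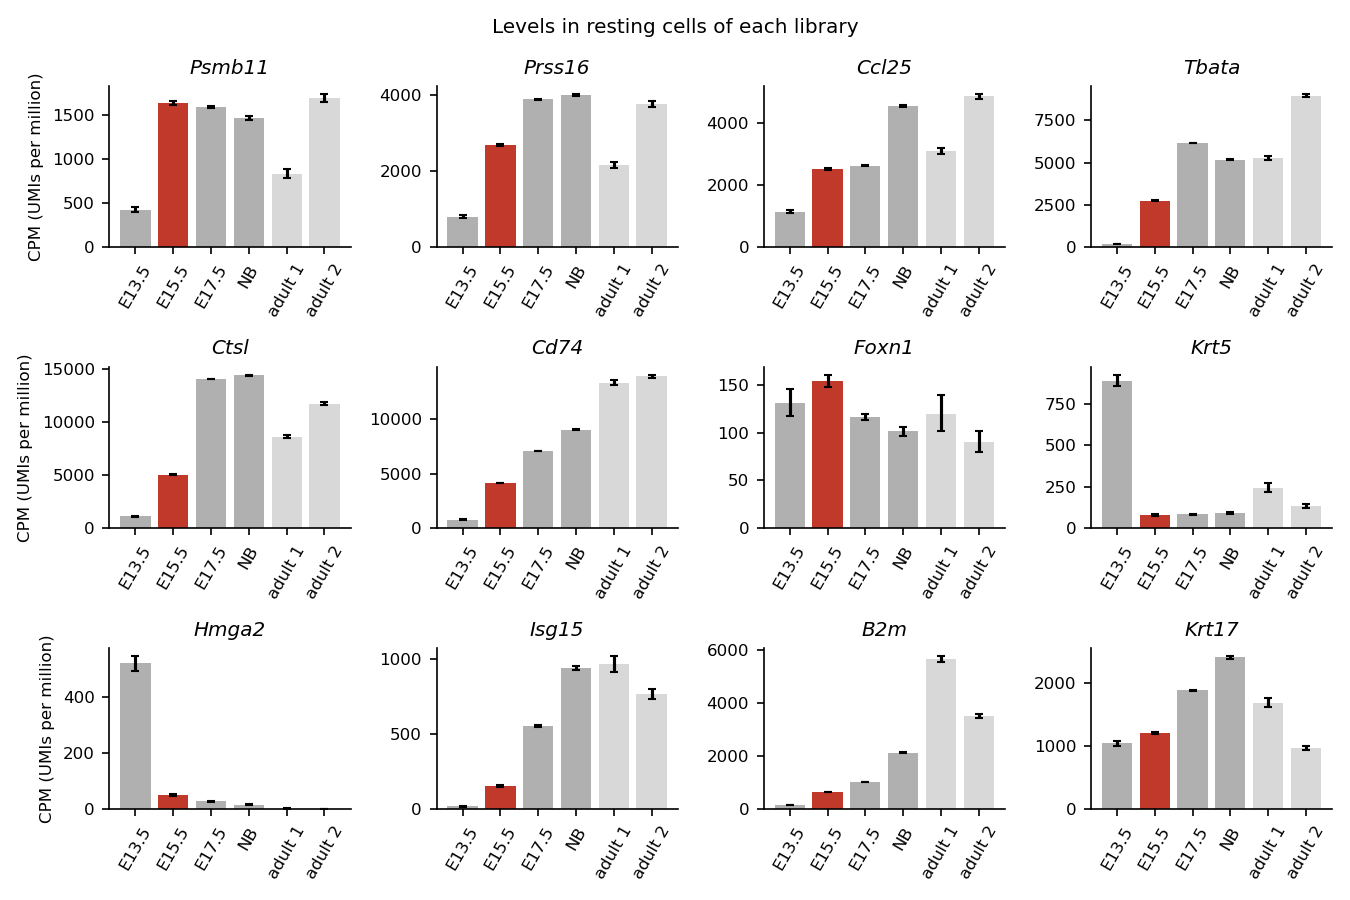
Summed levels in CPM of 12 genes in resting cells of the 6 libraries, with exact 95% Poisson intervals (counting error only) and E15.5 cTEC in red. Tbata, Ctsl, Cd74, Isg15 and B2m at E15.5 lie between E13.5 and every later library, Foxn1 stays between 90.2 and 154 CPM, and Krt5 and Hmga2 are highest at E13.5.

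Resting cells were next set against the 1546 cells of the same library that met the same rule but held at least 1 UMI of Mki67 or Top2a. Genes with a mean of at least 10 CPM over both groups were compared on the log2 scale after adding 10 CPM, and a gene counted as past the fold at a 2-fold difference. Of 8044 genes 1 was higher in the resting cells (0.0124%) and 215 were lower (2.67%). The rule split these cells, so nothing is read from these shares.

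Genes of division were among the lower ones, and the rest of the 215 were not assigned to a theme. The list of G2M phase genes had 51 of 53 lower and the S phase list 26 of 37, with median log2 differences of -2.24 and -1.19 beside 0.01 over all genes. Ube2c, which tags mitotic proteins for destruction, was at 17.01 CPM in resting and 603 in cycling cells, Cenpf of the kinetochore at 12.1 and 409, Ccnb1 at 8.22 and 243, Cdk1 at 14.7 and 331, and Prc1 of the mitotic spindle at 5.41 and 191. The PCNA-binding factor gene 2810417H13Rik was at 25.4 and 529 CPM. Top2a and Mki67 were at 0 in resting cells by the rule, and at 517 and 226 CPM in cycling cells.

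The 1 gene past the fold upward was Bpifa1, a secreted airway defence gene, at 76.8 against 3.52 CPM. Without the 6 resting cells that held at least 10 UMIs of Pth or Bpifa1 it was at 1.88 CPM (log2 difference -0.19), so its call rested on those cells.

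Beyond these lists, 1 of 8 Myc network genes and 2 of 15 G1 regulators were lower. All 14 cTEC markers stayed within 2-fold with a median of 0.28, as did all 10 thymus transcription factors with a median of -0.04, all 7 genes of MHC class II presentation (0.38) and all 13 interferon-stimulated genes past the minimum (0.46). Tbata was at 2739 CPM in resting and 1428 in cycling cells (log2 difference 0.94), Ccl25 at 2521 and 1805 (0.48), Psmb11 at 1630 and 1094 (0.57) and Foxn1 at 154 and 129 (0.23). Dll4 was at 79.4 and 80.4 CPM. The surface gene Epcam was lower in resting cells at 272 against 502 CPM (-0.86), and the Myc antagonist Mxd4 higher at 106 against 62.0 (0.69), both short of 2-fold. Myc was at 18.1 and 15.7 CPM.

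**Figure D2:**
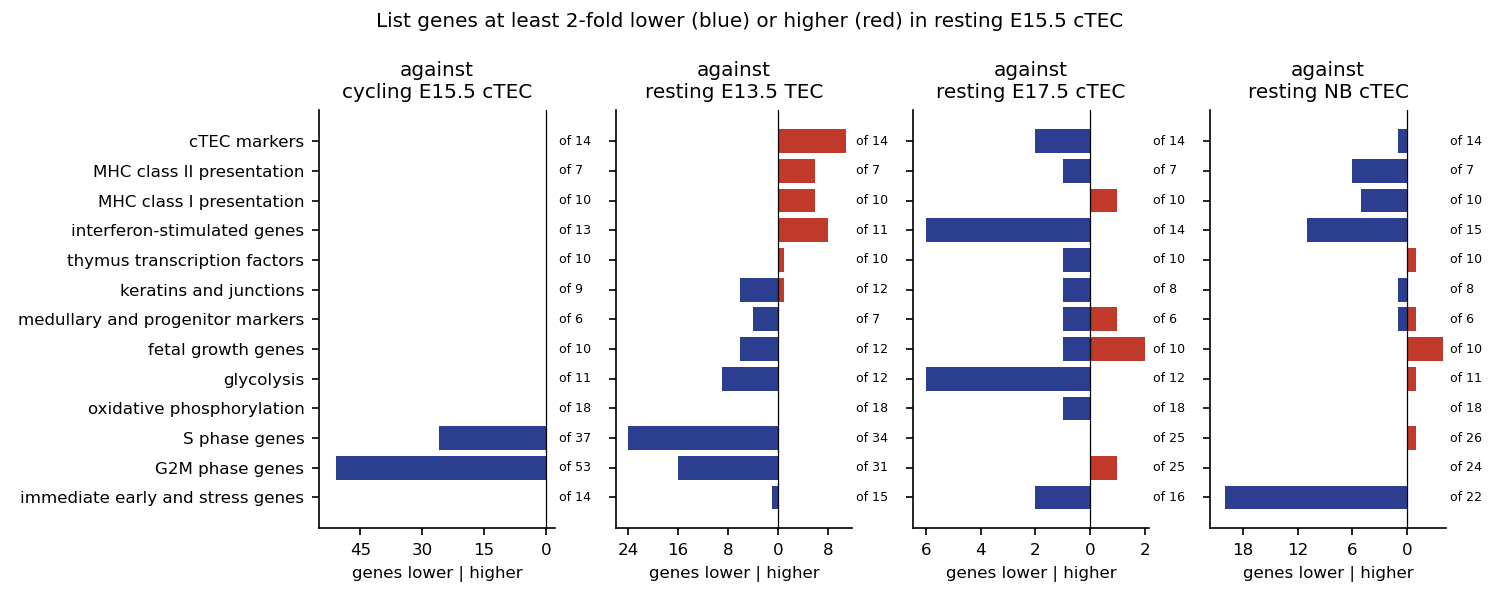
Number of genes of 13 lists at least 2-fold lower (blue, left) or higher (red, right) in resting E15.5 cTEC than in each of 4 other groups, with the number of list genes past the minimum level printed beside each bar and each panel on its own axis. Of these 13 lists only S and G2M phase genes are marked against cycling cells, against E13.5 the cTEC, MHC and interferon lists lie to the right and glycolysis and fetal growth to the left, and against NB 20 of 22 immediate early and stress genes lie to the left.

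Against the 459 resting cells of the E13.5 TEC library, 291 of 8133 genes were higher in E15.5 cTEC (3.58%) and 298 lower (3.66%). TMM scaling, which assumes that most genes do not differ, raised the log2 ratio of CPM by 0.181 before 10 CPM were added, so less for low genes, and gave 368 higher and 225 lower. The E13.5 cells had no Ly51 gate and more division transcripts, with 20.6% at 3 or more UMIs of the strict cycling genes when thinned. They also held a parathyroid list sum of 1613 CPM against 220. The part of these in the differences was not tested, and age and gate cannot be told apart.

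The cortical genes were higher at E15.5. Of 14 cTEC markers 11 were at least 2-fold higher and none lower, with a median log2 difference of 1.52, though the rule used Psmb11 and Prss16 of this list in both libraries. Tbata had the largest difference of the list (log2 difference 3.8), and Ackr4, a scavenger of chemokines, was at 2.9 and 56.8 CPM (2.37). Cxcl12 was at 212 and 685 CPM (1.64), and Dll4 at 22.7 and 79.4 CPM (1.45). The 3 markers within 2-fold were Foxn1 (0.22), Il7 at 331 and 372 CPM (0.16) and Kitl at 84.4 and 77.0 CPM (-0.12). Dll4 and Cxcl12 were thus higher, while Il7 and Kitl were near level. Of 13 entries of the list of thymocyte-supporting ligands past the minimum, 5 were higher, 1 lower and 7 within 2-fold (median 0.62).

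Antigen presentation genes were higher as well. Of 7 MHC class II genes 6 were higher (median 2.01), with H2-Aa at 180 and 1440 CPM (2.93) and Cd74 at 775 and 4155 (2.41). The class II transactivator gene Ciita was at 8.0 and 23.2 CPM (0.88), short of 2-fold. Of 10 MHC class I genes 6 were higher, B2m at 162 and 648 CPM (1.94). Among the proteasome subunits, the inducible Psmb9 was at 66.5 and 511 CPM (2.77) and Psmb10 at 376 and 1604 (2.06), while their partner Psmb8 stayed at 2.9 and 4.5 CPM and the standard subunit Psmb5 at 445 and 482. Of 11 interferon-stimulated genes past the minimum 8 were higher, Isg15 at 18.6 and 156 CPM (2.54).

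Lower at E15.5 were many fetal growth and glycolytic genes, and 4 of 7 genes of the mixed list of medullary and progenitor markers past the minimum. Krt5, a keratin of basal and medullary epithelium, was at 889 CPM at E13.5 and 81.4 at E15.5 (-3.30), and the surface gene Cd24a at 291 and 28.97. Of 12 fetal growth genes 6 were lower and none higher (median -1.19), with the chromatin factor Hmga2 at 518 and 51.9 CPM (-3.09), the imprinted H19 at 356 and 40.9 (-2.84) and the growth factor Ptn at 2265 and 430 (-2.37). Of 12 glycolytic genes 9 were lower (6 under TMM scaling), with a median of -1.18, among them Pkm at 1600 and 497 CPM and Ldha at 1592 and 543. All 18 genes of oxidative phosphorylation were within 2-fold. Of 10 thymus transcription factors only Trp63, the p63 gene of epithelial stem cells, passed the fold, at 116 and 291 CPM (1.26).

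The genes of largest difference named other functions too. Higher were Isg20, an exonuclease of the interferon response, at 10.6 and 287 CPM, Nqo1, a quinone reductase, at 23.8 and 326, the mitochondrial protease gene Oma1 at 77.5 and 613, Gatsl3 at 35.1 and 397 and Gch1, which makes a biopterin cofactor, at 6.94 and 108. Lower were the metal-binding Mt1 at 121 and 2.09 CPM, the keratinocyte gene Krtdap at 150 and 6.13, the fetal transcription factor Sox11 at 94.7 and 1.23, the tight junction gene Cldn6 at 101 and 2.02 and Igfbp5, which binds insulin-like growth factors, at 103 and 3.10.

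Of 7737 genes shared with E17.5, 132 were higher in E15.5 (1.71%) and 236 lower (3.05%) than in 5382 resting E17.5 cTEC. TMM scaling moved the log2 ratio of CPM by -0.292 before 10 CPM were added and gave 61 higher and 377 lower. E17.5 came from the second capture, with another gene annotation and Cell Ranger version, and adult cTEC were captured in both. Adult replicate 2 differed from replicate 1 by 2-fold in the same direction for 62 of the 132 genes and 90 of the 236. Over 7998 genes compared between the adult replicates, 593 were lower and 193 higher in replicate 2. All 8 genes of largest difference upward (Srp54b, Tonsl, Fdx1l, Sept2, Gm10036, Gm10073, Hgs and Hspa14) and 7 of the 8 largest downward (among them Fau, Pgk1, Lsm7, Pam16, Taf10 and Jund) differed by 2-fold between the adult replicates too. Gm10036, Gm10073 and Srp54b have near-identical copies, so their counts are uncertain. Fau, for example, was at 33.1 CPM at E15.5, 3799 at E17.5, and 98.8 and 2551 in adult replicates 1 and 2. Pax1 (340 and 973 CPM at E15.5 and E17.5) and Hes1 (10.1 and 90.3) also differed between the adult replicates, at 164 and 440 and at 20.1 and 99.2 CPM.

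Without the genes that were 2-fold apart between adult replicates, 69 were higher and 135 lower of 7217. The lower genes included Ifi27l2a, an interferon-induced gene, at 42.6 and 739 CPM with 2496 and 2532 in the adult replicates, and Krt7 at 45.4 and 403. Bst2, an antiviral membrane protein, was at 36.7 and 175 CPM. Cbr2 (41.9 and 344 CPM) and Fxyd2 (6.13 and 134) were also lower. Higher at E15.5 were Erh at 590 and 133 CPM, Tex10 at 227 and 55.7 and the microtubule gene Stmn2 at 570 and 202. Cbr2, Fxyd2, Erh and Tex10 were chosen after their values were seen.

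The cortical list was mostly level between these stages. Of 14 cTEC markers 12 were within 2-fold (median -0.01) and Ctsl and Tbata were lower at E15.5 (log2 differences -1.47 and -1.17). Interferon-stimulated genes had 6 of 14 lower, among them Isg15 at 156 and 556 CPM. Glycolytic genes had 6 of 12 lower, or 11 under TMM scaling, with Gapdh at 499 and 2230 CPM, Eno1 at 127 and 657 and Hk2 at 15.9 and 97.6. The list of 14 glycolytic genes summed to 3102 CPM at E15.5, below 7642 in E13.5 and 8748 in E17.5 cells and above 2197 in NB cells, where Gapdh was at 343 CPM, Eno1 at 76.2 and Hk2 at 9.4. In adult replicates 1 and 2, from the first and second capture, the list summed to 2349 and 2985 CPM. Age and capture cannot be told apart in the E17.5 value. In the E17.5 cells the erythroid list summed to 430 CPM against 0.649 at E15.5, with Hbb-bs at 220 CPM. The part of blood RNA in these differences was not tested.

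Against 2788 resting NB cTEC, 92 of 7948 genes were higher in E15.5 (1.16%) and 286 lower (3.6%). With ribosomal protein and mitochondrial genes left out of the totals, these were 154 and 257. Of 22 immediate early and stress genes 20 were lower, with Fos at 21.0 CPM in E15.5 and 2306 in NB, Jun at 74.9 and 2385, Junb at 149 and 2511, Egr1 at 19.7 and 768, Fosb at 4.25 and 484 and the transcriptional brake Btg2 at 25.7 and 541. Atf3 had 1 UMI in the E15.5 cells and 454 CPM in NB. This list summed to 3441 CPM in E15.5, 3911 and 3360 in the other trypsin-dispersed libraries, E13.5 and E17.5, and 16977, 27429 and 16421 in the Liberase-digested NB and adult replicates. Age and digestion cannot be told apart here.

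Beside the stress genes, antigen presentation was lower at E15.5 than in NB. Of 7 MHC class II genes 6 were lower (5 without ribosomal and mitochondrial genes in the totals), Cd74 at 4155 and 9034 CPM and H2-Aa at 1440 and 3977. Of 10 MHC class I genes 5 were lower, H2-D1, whose reads may be split with related class I genes, at 259 and 1176 CPM, and Psmb8 was at 4.5 and 71.8. Interferon-stimulated genes had 11 of 15 lower (9 in that scaling), Isg15 at 156 and 940 CPM and Ifi27l2a, which is outside the list, at 42.6 and 2110. Thymocyte markers summed to 8.0 CPM at E15.5 and 98.7 in NB, and mesenchymal markers to 8.79 and 26.2. The part of other cells and of digestion in these differences was not tested.

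Fetal growth genes had 4 of 10 higher at E15.5 and none lower, Hmga2 at 51.9 and 16.3 CPM and the imprinted Meg3 at 154 and 45.2 and Cdkn1c at 94.3 and 38.4. The ribosomal protein list had 15 of 99 higher and a median of 0.71. Of the genes of largest difference, Stmn2 was at 570 and 56.1 CPM, the actin-linked Pdlim2 at 130 and 19.2, the glycolytic mutase Pgam2 at 109 and 20.6, Ddit4 at 171 and 43.3, Nrep at 55.0 and 9.52, Ctnna3 at 39.1 and 3.36 and Elfn1 at 38.6 and 2.75. Bpifa1 was at 76.8 and 0.495 CPM, and at 1.88 without the 6 cells. Of 14 cTEC markers 1, Ctsl, was 2-fold lower, and Foxn1 was at 154 and 101 CPM.

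Among the 2001 cells the 3 marker genes were broadly spread but without a gap. At 3000 UMIs Psmb11 had a median of 5 UMIs per cell with the 5th and 95th percentiles at 0 and 11, Prss16 a median of 7 (1 to 18) and Ccl25 a median of 7 (1 to 16). Ctsl had a median of 13 (3 to 37) and Tbata of 6 (0 to 24). The variance of Tbata was 8.02 times its mean, against 1.69 for Eef1a1, a gene of general use, and 1.04 for Foxn1, whose median was 0 UMIs with a 95th percentile of 2. At under 1 Foxn1 UMI per cell, the spread between single cells was close to that of counting, and differences between groups of cells are given further on.

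**Figure D3:**
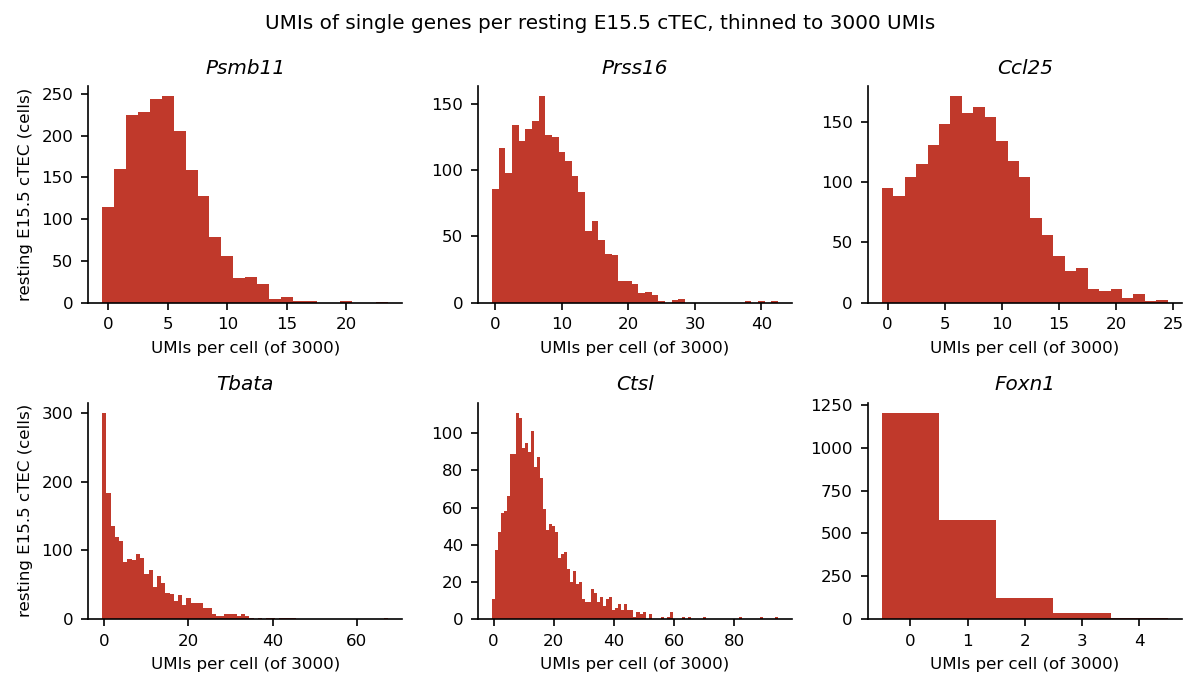
Number of resting E15.5 cTEC (vertical axis) with each number of UMIs (horizontal axis) of 6 genes after thinning to 3000 UMIs per cell, over 1946 cells. Psmb11, Prss16 and Ccl25 spread broadly with no gap and have medians of 5, 7 and 7, Tbata has its mode at 0 with a tail past 24, and Foxn1 lies mostly at 0 and 1.

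Genes were ranked by the variance of their residuals from a count model with the same share of UMIs in every cell, so that a gene of pure counting noise has a value near 1. Over 8743 genes the median was 1.04, and 290 (3.32%) reached 1.5. The 25 most variable genes fell into several kinds. Cortical and presentation genes were Tbata (14.3), Ctsl (11.9), Prss16 (5.97), B2m (5.59) and Cd74 (5.39). Krt5 (10.0), Krt17 (6.95), Krt18 (5.53) and Krt19 (4.98) encode keratins. Ccl21a (17.4), a chemokine of the medulla with near-identical copies in the genome, so that its count is uncertain, and Lect1 (7.86) were held by few cells. Interferon genes were Cxcl10 (11.2) and Isg15 (5.05), and chromatin genes of dividing cells Hist1h2bc (6.04) and Hmgb2 (5.06).

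The remaining most variable genes were Malat1 (14.5), Actb (14.0), the ribosomal RNA-derived Gm42418 (10.9), Fabp5 (10.5), Meg3 (10.5), Cstb (8.29), the iron store gene Fth1 (8.06), Rpl39 (8.06), Xist (7.97), which marks the cells of 1 sex, and Oma1 (4.99). By list, the 7 genes of MHC class II presentation had a median of 2.84 and 9 of 14 interferon-stimulated genes reached 1.5. None of 10 thymus transcription factors did, with Trp63 highest at 1.35.

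At full depth, a few genes came from few cells. Of 802 Ccl21a UMIs 66.1% were in 20 cells, and 108 cells had any. Krt5 UMIs were in 295 cells (14.7%), with 43.7% in 20 of them, and Krt19 UMIs in 46 cells with 83.9% in 20. Cxcl10 was in 457 cells (22.8%) with 28.99% in 20. For Tbata, by contrast, the 20 highest cells held 5.48% of the UMIs, and 90.5% of cells had at least 1.

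The main axis of variation, component 1, carried 4.61% of the residual variance of 2000 variable genes. Its Spearman correlation with UMIs per cell was 0.03 over 2001 cells. Cells were divided along it into 5 groups of 400 or 401 cells, and the median depth of these ran from 6291.5 to 7335.5 UMIs. Both sexes were in every group, with 157 Xist-only and 136 Y-only cells in group 1, and 150 and 139 in group 5. Since the genes named next made the axis, their values along it are a description.

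Between groups 1 and 5, 344 of 7908 genes were at least 2-fold higher in group 5 (4.35%) and 187 lower (2.36%). Of the lists, 5 of 14 cTEC markers were higher and 1 lower, 7 of 7 MHC class II, 6 of 10 MHC class I and 12 of 13 interferon-stimulated genes were higher and none lower, and all 10 thymus transcription factors were within 2-fold. The class I loading chaperones Calr (699 and 567 CPM) and Canx (212 and 162) were slightly lower in group 5. Tbata stood at 335, 1341, 2368, 3761 and 5752 CPM, a ratio of 17.2 between the ends. Krt17 ran from 253 to 2375 CPM (9.39), B2m from 225 to 1384 (6.14), H2-Aa from 428 to 2396 (5.60), Ctsl from 2146 to 8478 (3.95), Cd74 from 1809 to 5947 (3.29) and Ccl25 from 1058 to 3434 (3.25). Psmb11 stood at 894, 1570, 1825, 1874 and 2013 CPM and Prss16 at 1693 and 3305 at the ends, with most of the difference between groups 1 and 2.

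Foxn1, Pax1 and Dll4 differed less between the ends, by ratios of 1.42, 1.13 and 0.866. Foxn1 stood at 115, 152, 167, 174 and 163 CPM, Pax1 at 307 and 346 at the ends, and Dll4 at 79.6 and 68.9. Il7 went from 272 to 426 CPM and Cxcl12 from 521 to 796. Ackr4 was the 1 cTEC marker at least 2-fold lower in group 5, from 95.6 to 25.9 CPM.

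Of 10 fetal growth genes past the minimum 5 were at least 2-fold lower in group 5 and none higher, with a median log2 difference of -0.88. Others were near level, Igf2bp2 at 62.1 and 65.5 CPM and Igf2bp3 at 66.2 and 69.9. The surface gene Epcam went from 557 to 158 CPM, Hmga2 from 117 to 22.5, H19 from 96.3 to 8.19, Meg3 from 214 to 61.1 and Mdk from 1186 to 562. Glycolytic genes made up 48.0 UMIs per 10000 in group 1 and 24.5 in group 5. Myc was at 20.5 and 17.4 CPM at the ends, and its antagonist Mxd4 at 49.5 and 174. Division transcripts varied along the axis. Thinned to 3000 UMIs, 53.8% of group 1 cells (exact 95% interval 48.7 to 58.8%) and 82.7% of group 5 cells (78.5 to 86.3%) had no UMI of the 10 strict cycling genes (33.2 and 62.8% at full depth), and the G2M list went from 23.8 to 10.9 UMIs per 10000. Ribosomal protein genes made up 27.7 and 22.0% of UMIs. The lowest genes toward group 5 also included Bpifa1 (350 and 1.02 CPM), Pth (292 and 4.09) and Chga (107 and 0.341), carried by the few cells described further on, and the medullary Ccl21a was among the highest (5.12 and 178). The part of residual cycling and of these cells in the axis was not tested.

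The genes of this axis were compared with stage in the other libraries, which did not make it. Of 344 genes at least 2-fold higher in group 5 than group 1, 200 (58.1%) were at least 2-fold higher in NB than in E13.5 cells, against 7.04% of all 7908 genes compared. Of 187 genes lower in group 5, 102 (54.5%) were lower in NB, against 4.91% of all. For E17.5 over E13.5 the shares were 54.1% (6.02% of all) and 53.5% (8.72%). Both use the E13.5 library, so they are not separate evidence. Most genes that differed by 2-fold between the ends of the axis thus differed by 2-fold in the same direction between these libraries. The libraries differ in more than stage. E13.5 cells had no Ly51 gate, and NB cells were digested otherwise. The strict cycling genes summed to 542 CPM in E13.5 and 97.2 in NB, and the parathyroid list to 1613 and 105. Both kinds of transcript were also higher in group 1 than in group 5. The part of these in the overlap was not tested. Of the same 344 and 187 genes, 13 and 13 differed by 2-fold in the opposite direction between E13.5 and NB. Examples of the same direction are Clip4 (17.8 and 262 CPM in groups 1 and 5, 13.2 in E13.5 and 153 in NB) and Isg20 (75.8 and 541, 10.6 and 707). Ccl21a was higher in group 5 but stood at 365 CPM in E13.5 and 190 in NB. Lgals1, chosen after its values were seen, was lower in group 5 (157 and 24.2 CPM) but stood at 50.1 in E13.5 and 189 in NB.

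**Figure D4:**
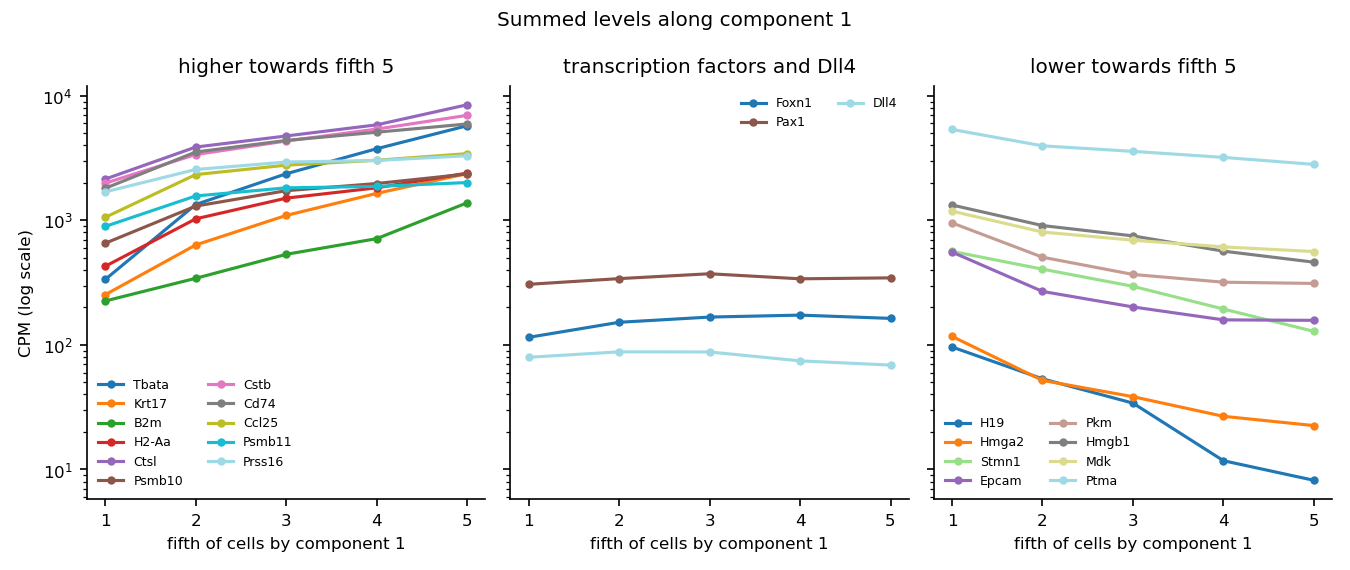
Summed levels in CPM (log axis) of cortical and presentation genes, of Foxn1, Pax1 and Dll4, and of growth and chromatin genes in 5 equal groups of resting E15.5 cTEC ordered along component 1. Tbata ranges over 335 to 5752 CPM, Foxn1 over 115 to 174, and Epcam over 557 to 158.

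Leiden clustering at resolution 0.8 divided the cells into 12 clusters, and at resolution 0.4 into 6. With cell cycle and ribosomal protein genes left out there were again 12. Their genes defined them, so a cluster against the rest is no test, and clusters are given by number and leading genes. Cluster 1 (433 cells; Ramp3, Nt5dc2 and the cell cycle inhibitor Cdkn1c leading, none of them 2-fold apart) and cluster 2 (411 cells; Tbata, Isg20 and Clip4 among its leading genes) were the largest. In cluster 2 Tbata was at 5358 CPM, Ccl25 at 3138 and Epcam at 139.

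Cluster 3 (334 cells; Bpifa1, Pth, Igfbp3, Krt19 and Tshz2) held 1295 of the 1350 Pth UMIs and 1044 of the 1066 Bpifa1 UMIs. At full depth Pth was found in only 3.89% and Bpifa1 in 2.40% of its cells. Igfbp3 was more widely held, in 25.7% of its cells and 6.30% of the others, and Tshz2 in 22.8 and 2.46%. Krt19 was in 8.08 and 1.14%. Its cortical genes were low, with Tbata at 388 CPM, Ccl25 at 1085, Psmb11 at 918 and Cd74 at 1808, and Psmb11 UMIs in 94.6% of its cells at full depth. Epcam, at 544 CPM, was higher than in all 2001 cells together (272). It held 13 of the 25 cells with 1 or 2 Psmb11 or Prss16 UMIs, and 61.1% of its thinned cells had no strict cycling UMI (36.5% at full depth). Cluster 4 (246 cells; Gm42418, AY036118 and Ctsl) was the deepest at a median of 8204.5 UMIs and had Ctsl at 9343 CPM. Cluster 6 (105 cells; Gm42418, Spa17 and Mex3c) was shallow, with 4826 UMIs and 3.53% mitochondrial UMIs in the median cell.

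The other clusters were smaller than cluster 4. Cluster 5 (170 cells) was led by Hist1h2bc and Stmn1, and cluster 7 (90 cells) by Slc39a1, Spry2, a feedback inhibitor of growth factor signals, and Abhd2. Cluster 8 (64 cells; Cdc20, Cenpa, Birc5 and Cdca8) held 98.1 G2M list UMIs per 10000 and no cell free of strict cycling UMIs, although none held Mki67 or Top2a. Cluster 9 (49 cells) was led by the imprinted genes Meg3, Cdkn1c and H19, and cluster 10 (40 cells) by the interferon targets Cxcl10, Ifit3, Ubd, Iigp1 and Isg15.

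Cluster 11 (33 cells; Ccl21a, Lect1, H2-Q7 and Krt14) had 3 of the medullary and progenitor markers at least 2-fold higher than the other cells. Its Psmb11 was at 763 CPM and Ccl25 at 1632, with Psmb11 UMIs in 81.8% of its cells at full depth, and its Cd74 at 7677 CPM was the highest of the 12. Cluster 12 (26 cells; Krt5, Krt19, Cmtm8 and Cd24a) had Krt5 at 2407 CPM and 2 such markers, with Psmb11 at 670 CPM and Ccl25 at 941. Foxn1 lay between 107 and 184 CPM over the 12 clusters, and every cluster held Xist-only and Y-only cells.

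**Figure D5:**
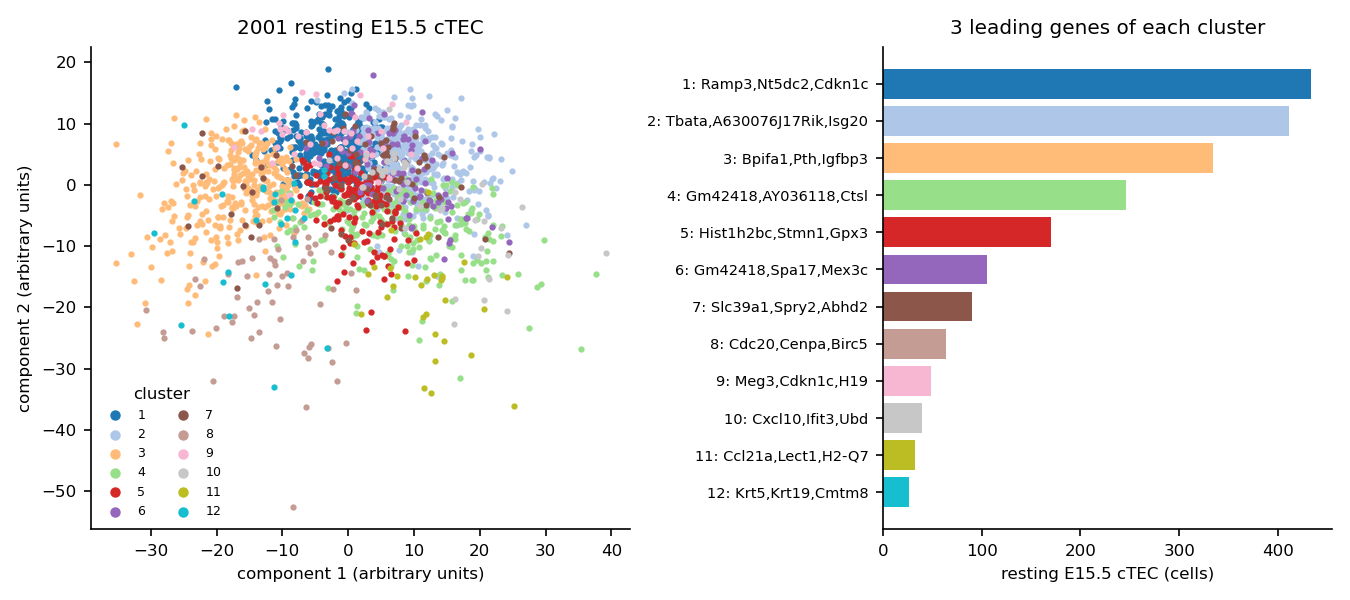
Left, scores (arbitrary units) of 2001 resting E15.5 cTEC on components 1 and 2, coloured by cluster; right, number of cells in each of 12 clusters with its 3 leading genes. Clusters 3 and 2 lie at the left and right of component 1 without a gap, and clusters 8 to 12 hold 26 to 64 cells each.

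Across the 1946 thinned cells, Spearman correlations were taken between 416 genes with at least 1 UMI per cell on average. All pairs come from 1 library at 1 depth, the median was 0.0004 and 95% of pairs lay between -0.112 and 0.135. The closest partners of Psmb11 were Krt18 (0.40), Ccl25 (0.39), Krt8 (0.31), Cstb (0.30) and Tbata (0.30), and of Prss16 they were Ccl25 (0.27), Cd74 (0.26), Ctsl (0.26) and H2-Ab1 (0.24). Ccl25 went with Ctsl (0.45), Tbata (0.44), Krt18 (0.40) and Psmb11. Psmb11 and Prss16, both used by the rule, correlated at 0.20.

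On the low side, the chromatin-linked Ptma and Hmgb1 were the lowest partners of Psmb11 (-0.26 and -0.22) and Prss16 (-0.23 and -0.21), and Ptma was the lowest of Ccl25 (-0.33). The closest of all pairs were Krt8 with Krt18 (0.63), Tbata with Cstb (0.60) and H2-Aa with Cd74 (0.59). In the 1061 cells that had no strict cycling UMI at full depth and reached 3000 UMIs, Psmb11 and Ccl25 correlated at 0.35 and Tbata and Cstb at 0.55. In Xist-only cells (734) these were 0.38 and 0.60, and in Y-only cells (691) 0.39 and 0.65. Other pairs varied more. Psmb11 and Prss16 correlated at 0.11 in Xist-only and 0.22 in Y-only cells, and Ptma and Malat1, the lowest of all pairs at -0.51, at -0.36 in those 1061 cells.

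Sparse ligands were described by shared detection. Of cells with a Foxn1 UMI 22.4% had a Dll4 UMI, against 19.5% of the others. Il7 was found in 61.8% of cells with Dll4 and 62.7% of those without, so the shares lay close together at this depth. In contrast Bst2 was found in 18.95% of cells with Isg15 and 4.97% of the others, H2-D1 in 61.0% of cells with H2-K1 and 33.0% of the others, and Ccl21a in 12.8% of cells with Krt5 and 2.96% of the others.

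Some transcripts belonged to a handful of cells that met the rule with few cortical UMIs. Of 1350 Pth UMIs 95.04% were in 2 cells, which also held Chga, a secretory granule gene, at 33791 CPM and the parathyroid factor gene Gcm2 at 305, with Psmb11 at 76.3 CPM. Of 1066 Bpifa1 UMIs 97.6% were in 4 cells, led further by Wfdc2, Krt15 and Krt19, with Psmb11 at 236 CPM. Ccl21a was different: its 26 cells with at least 10 UMIs had Psmb11 at 940 CPM and Ccl25 at 1546. Likewise the 22 cells with at least 10 Krt5 UMIs had Psmb11 at 876 CPM and Krt8 at 6318. Wfdc2 and Krt15 were chosen after their values were seen.

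Few genes differed by 2-fold between cells of the 2 sexes. Of 7881 genes compared between 747 Xist-only and 703 Y-only cells, 9 were past 2-fold. Higher in Y-only cells were Ddx3y, Eif2s3y, Uty and Kdm5d, and in Xist-only cells Xist and Tsix, which defined the groups or overlap Xist, as well as Pth (166 and 4.38 CPM), Bpifa1 (158 and 6.37) and Chga (60.3 and 0.796). Of the 2 cells with at least 10 UMIs of Pth and of Chga 1 was Xist only, and of the 4 such Bpifa1 cells 2 were Xist only and 1 Y only, so these 3 differences rested on 1 or 2 cells. The median absolute log2 difference over all genes was 0.07. The number of embryos is unknown, so sex and embryo cannot be told apart.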

How the data were processed

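The authors sorted TEC, made 10x Chromium version 2 libraries and deposited raw UMI count matrices, one per library, without normalization. The submitters' processing notes name Cell Ranger 2.0.1, STAR 2.5.1b, bcl2fastq 2.17 and mm10, whereas the headers of the 3 matrices of data set 2, E17.5 cTEC among them, name version 3.0.1. Data set 1 had 27998 genes and data set 2 31053, of which 27514 were shared and used between data sets. Every deposited count was checked to be a whole number.

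From these counts cells were selected by the stated rule, with the same rule in the other libraries. Counts were summed per group, scaled to CPM and compared as log2 of CPM + 10, at 2-fold among genes of mean at least 10 CPM. With 1 library a group no test was run. Within the group, residual variance used a negative binomial with theta 100 over genes with a mean of at least 0.05 UMIs in at least 20 cells, then 2000 genes, 20 components, 20 neighbours and Leiden clustering (leidenalg 0.10.2, scikit-learn 1.9.0, numpy 2.4.6, scipy 1.17.1, Python 3.11.15). Shares of cells used cells thinned to 3000 UMIs unless full depth is stated. Levels carry exact Poisson and shares exact binomial (Clopper-Pearson) 95% intervals, a count of 0 allows up to 3 counts, and both cover counting error only. The steps were tested on simulated data. Depth is given in the report.

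Named genes were members of the gene lists, the 25 most abundant and 25 most variable genes, the 8 of largest difference in each direction and comparison, up to 10 leading genes per cluster, and the 8 highest and lowest correlates of Psmb11, Prss16 and Ccl25. The genes of largest difference were taken without ribosomal protein, mitochondrial, haemoglobin, antigen receptor and sex-linked genes. Listed markers of other cells, Pth among them, were left out there too. Genes named outside this rule are said to be chosen after their values were seen. Some genes that meet the rule are not reported here. The members and gene lists were chosen with earlier results of these data known. Gene positions are from GENCODE on GRCm38 and promoter windows from RefSeq. Alternatives were another pseudocount, no filter on low values, TMM scaling, totals without ribosomal and mitochondrial genes, the mean of single-cell CPM, other cell selections and other clustering settings.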

Additional observations from a re-analysis of the deposited data

How the results depend on the processing

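Leaving out a library was not possible with 1 library per group. No paired analysis was possible because each group compared had 1 library and no test was made, while the adult cTEC replicates served as levels and to set the 2 data sets side by side. Of 56 alternatives over 11 results, 43 stayed within 1.5 times the reported count or within the counting interval of a reported share. Genes higher and lower were counted together for this, so a shift between directions was not scored. Leaving out cells marked by Scrublet could barely move a count, since none of the 2001 cells was marked. The number of resting cells was 1095 instead of 2001 when all 10 strict cycling markers had to be at 0. A pseudocount of 1 CPM gave 998 genes past the fold against E13.5 TEC instead of 589, 740 instead of 368 against E17.5 cTEC and 622 instead of 378 against NB cTEC. Without genes 2-fold apart between the adult cTEC replicates, an alternative chosen after seeing the data, 204 genes were left against E17.5. The splits that another scaling moved are in the report: TMM scaling gave 62.1% of calls higher instead of 49.4% against E13.5, and 13.9% instead of 35.9% against E17.5, where the pseudocount of 1 CPM gave 48.6%, and totals without ribosomal and mitochondrial genes gave 37.5% instead of 24.3% against NB. Depth set the shares of cells with a UMI. Thinned to 2000 UMIs they were 93.3% for Ccl25, 27.7% for Foxn1 and 7.54% for Krt5, and with no thinning 97.501, 61.7 and 14.7%, against 95.1, 38.1 and 9.61% at 3000 UMIs. Resolution 0.4 gave 6 clusters instead of 12. With at least 2 UMIs required, cells with both Xist and Y-linked UMIs were 0.391% instead of 1.96%. Of the 25 most variable genes 22 were among the 25 highest by the Fano factor of thinned counts, 21 in cells free of strict cycling UMIs, 24 without cells of at least 10 Pth or Bpifa1 UMIs and 25 without the 29 cells of both sexes, the latter 2 settings chosen after seeing the data. Doublets, free RNA and residual division transcripts were measured but not removed.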
